A study of Mus musculus with 15 samples.

Results

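The MHC class II presentation genes described here are 10 mouse genes that together make, load and switch on the class II molecules with which antigen-presenting cells display peptides to CD4 T cells. They were chosen by name, not by any measured value, and each row of the promoter table that carries one of their RefSeq transcripts was taken. This gave 12 of 25881 promoters, because Ciita has 3 annotated transcription start sites (TSSs). Nucleosome occupancy around them was measured by ChIP-MNase, in which chromatin recovered with an antibody is digested on the beads with micrococcal nuclease (MNase), in 15 sets of mouse cells. The dendritic cells (DCs) were grown in vitro with GM-CSF from mouse bone marrow progenitor lines, and class II with CD11c on their surface was what the study checked by flow cytometry. They were either non-stimulated or treated for 1 h with LPS, a bacterial cell wall component, at 100 ng/ml. The fibroblasts were of the immortalised 3T3 line, non-stimulated or treated for 1 h with the cytokine TNF-α at 5 ng/ml. For these 4 conditions the H3K4me1 occupancies are given as 1 set each, in which the authors had combined 2 replicates, so none of the 4 carries a replicate error. Another 8 H3K4me1 libraries are single replicates of 3T3 fibroblasts, 2 each of control and BAF-knockdown cells with and without TNF-α. The knockdown cells stably expressed a single shRNA against a sequence shared by Brg1 and Brm, the catalytic subunits of the BAF chromatin remodeller, from a retroviral vector with GFP, and were sorted for GFP. The remaining 3 libraries came from TNF-α-stimulated fibroblasts with antibodies against RNA polymerase II phosphorylated on serine 7 (pol-II S7P, 2 libraries) or serine 5 (pol-II S5P, 1 library). Strain and age are not given in the sources used here.

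H2-Aa and H2-Ab1 encode the α and β chains of the class II molecule I-A, and H2-Eb1 encodes the β chain of I-E. Cd74 encodes the invariant chain, which escorts new class II molecules to endosomes and fills their groove, H2-DMa, H2-DMb1 and H2-DMb2 encode the chains of H2-DM, which exchanges the last piece of the invariant chain for peptide, and H2-Oa and H2-Ob encode H2-O, an inhibitor of H2-DM known mainly from B cells. Ciita encodes the class II transactivator, a coactivator that binds no DNA itself and is recruited to class II promoters by the factors RFX, CREB and NF-Y bound to the X box and the Y box. Its own promoters are known to be used by cell type, with pI in dendritic and myeloid cells, pIII in B cells and pIV after interferon-γ in many other cells.

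To show the sites through which CIITA is known to reach these genes, the 150 bases before the RefSeq start are given for the 6 members with an entry close to the start of the promoter table. They were copied from RefSeq promoter sequences of build GRCm38.p6, in which 7 of the 10 genes were matched, and each run of bases had 1 exact match in mm9, the build of the occupancies. The positions are chr17:34287824-34287973 on the minus strand for H2-Aa and, on the plus strand, chr17:34305717-34305866 for H2-Eb1, chr17:34153041-34153190 for H2-DMb1, chr17:34145099-34145248 for H2-DMb2, chr17:34092229-34092378 for H2-Oa and chr17:34238755-34238904 for H2-Ob. Capitals mark the letters GATTGG of the Y box on either strand (CCAATC where it lies on the opposite strand), the letters AGNNACNGA of an X box core, and TGACGT on either strand, the letters of a CREB-type X2 box, whose copies on both strands overlap in H2-Aa. Each sequence reads 5′ to 3′ in the direction of transcription.
H2-Aa: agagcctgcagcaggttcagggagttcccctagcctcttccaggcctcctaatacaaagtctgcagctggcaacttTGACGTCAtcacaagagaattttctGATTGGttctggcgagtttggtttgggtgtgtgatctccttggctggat
H2-Eb1: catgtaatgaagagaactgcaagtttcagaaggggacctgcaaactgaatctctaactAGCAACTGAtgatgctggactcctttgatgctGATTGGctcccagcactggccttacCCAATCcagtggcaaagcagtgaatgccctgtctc
H2-DMb1: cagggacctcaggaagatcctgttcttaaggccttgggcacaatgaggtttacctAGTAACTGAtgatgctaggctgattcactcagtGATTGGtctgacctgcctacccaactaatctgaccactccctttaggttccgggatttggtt
H2-DMb2: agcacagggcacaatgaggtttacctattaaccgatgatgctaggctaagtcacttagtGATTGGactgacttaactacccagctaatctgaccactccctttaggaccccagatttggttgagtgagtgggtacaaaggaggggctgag
H2-Oa: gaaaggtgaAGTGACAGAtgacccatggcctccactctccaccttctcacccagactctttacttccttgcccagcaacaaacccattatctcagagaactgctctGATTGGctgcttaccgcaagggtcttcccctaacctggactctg
H2-Ob: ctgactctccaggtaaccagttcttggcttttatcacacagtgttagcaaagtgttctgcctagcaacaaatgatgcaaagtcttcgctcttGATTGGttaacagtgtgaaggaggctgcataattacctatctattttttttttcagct

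All 6 promoters held GATTGG within these 150 bases, whereas 10.9% of the 32851 RefSeq promoters held it in the same stretch. The letters AGNNACNGA were found in 3 of 6 (H2-Eb1, H2-DMb1 and H2-Oa, against 8.72% of all promoters), TGACGT in 1 of 6 (H2-Aa, against 5.15%), and GAAANNGAA, the letters of an interferon response element, in 0 of 6 (against 3.95%). These letters AGNNACNGA began 33 bases before the Y box in H2-DMb1, 32 bases in H2-Eb1 and 97 bases in H2-Oa. H2-Oa, closer to its Y box, and H2-Ob also read agcaacaaa, which the fixed letters do not match. A match or its absence therefore does not place the X box of a promoter. The letters TGATGC were looked for only after the sequences had been seen. They were found in H2-DMb1, H2-DMb2, H2-Ob and H2-Eb1 (4 of 6), against 5.68% of all promoters with them anywhere in the stretch on either strand. In these 4 they stood 21 to 24 bases before the Y box, taking the first of 2 copies in H2-Eb1. The share of all promoters with this spacing was not counted. In a global alignment of the 150 bases of the paralogs H2-DMb1 and H2-DMb2, 108 of 179 columns were identical (60.3%), with gap columns counted. The 2 stretches start at different points of their shared sequence, so this share understates how alike the paired bases are. The RefSeq start lay at the start of the promoter table for 4 of the 6 genes, but at −52 bp for H2-Aa and at −167 bp for H2-DMb2. The centre of the Y box was therefore between −98 and −41 bp of the table's TSS in 5 promoters and at −255 bp in H2-DMb2. H2-Eb1 holds another copy on the opposite strand, centred at −32 bp. These matches of letters are a description of the sequences and do not show that a factor was bound.

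Of the members, 8 lie in the class II region, where their TSSs stand between 34229324 (H2-Oa) and 34442812 (H2-Eb1) on chromosome 17 of mm9. H2-DMa starts at 34272616, H2-DMb2 at 34282361, H2-DMb1 at 34290136, H2-Ob at 34375850, H2-Ab1 at 34400172, and H2-Aa, the only member of the region on the minus strand, at 34424716. The Ciita promoters lie on chromosome 16 at 10480165 for pI (NM_001243760), 10488271 for pIII (NM_007575) and 10489874 for pIV (NM_001243761). The authors' coverage score, which counts fragments near the TSS, was above their limit of 100 for all 12 promoters, as it was for 13559 (52.4%) of all promoters. The scores fell into a low and a high group. H2-Eb1 (126), H2-Ob (127.5), H2-Aa (130) and H2-Ab1 (140.5) were just above the limit, H2-DMa had 232 and H2-Oa 401, and the 3 Ciita promoters (506.5 to 738.75), H2-DMb1 (750), Cd74 (751.5) and H2-DMb2 (1038) were well above it. The most highly expressed chains of I-A and I-E were thus among the members with the fewest fragments.

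Before the occupancies are compared, some properties of the sets bear on every value. The 4 pooled sets had a mean occupancy of 1.61 to 1.63. That of the 8 single H3K4me1 libraries was lower at 0.791 to 0.804 and that of pol-II between them at 0.962 to 0.975, and each set was therefore divided by its own mean. Single libraries left more bins without any fragment than pooled sets. At the paralogous H2-DM genes this was extreme, since 65 of the 200 bins of H2-DMa (from −1000 to −350 bp of the TSS) were empty in all 11 single libraries, and 59 of these 65 were covered in all 4 pooled sets. H2-DMb2 had 21 such bins, most of them in a run from −900 to −710 bp, and H2-DMb1 13 (−650 to −520 bp), while the other members had 0 to 2. At least 20 such bins were found in 2 of the 12 members and in 643 (4.74%) of the 13559 promoters with a score above 100. Only 73.8% of the 32-base words at H2-DMb1 and 72.6% at H2-DMb2 occurred once in mm9, and 93.2 to 100% did at the other members. Within the empty stretch of H2-DMa, however, 1.23% of words were repeated. Whether mapping made these gaps was not tested, and ratios of H2-DMa in single libraries are not read below as depletion. These libraries still enter its fits and correlations across sets, whose values for the NDR log2 ratio therefore rest partly on an empty flank.

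The authors' table also carries an expression value before stimulation for each promoter, which was not measured in these libraries and is used here only as a rank within a cell type. In such bulk values, fewer expressing cells and less RNA per cell cannot be told apart. In DCs, Cd74 was 37th of all promoters, H2-Ab1 80th, H2-Aa 85th and H2-Eb1 165th, so that the chains of class II and their chaperone were at percentiles of 99.4 to 99.9. The H2-DM chains came next, with H2-DMb1 at percentile 98.6, H2-DMa at 98.1 and H2-DMb2 at 93.4. Of the Ciita rows, pI stood highest (82.9), ahead of pIII (63.4) and pIV (57.3). H2-Oa was at 62.5 and H2-Ob at 50.4, below the limit of 0.02 times the mean by which a promoter was called expressed. In all, 11 of 12 members were called expressed in DCs, beside 48.1% of all 25881 promoters, and 2 of 12, H2-DMa and Cd74, in fibroblasts, beside 40.2%. In fibroblasts the members ranged from percentile 29.4 (Ciita pI) to 61.3 (H2-DMa).

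**Figure D1:**
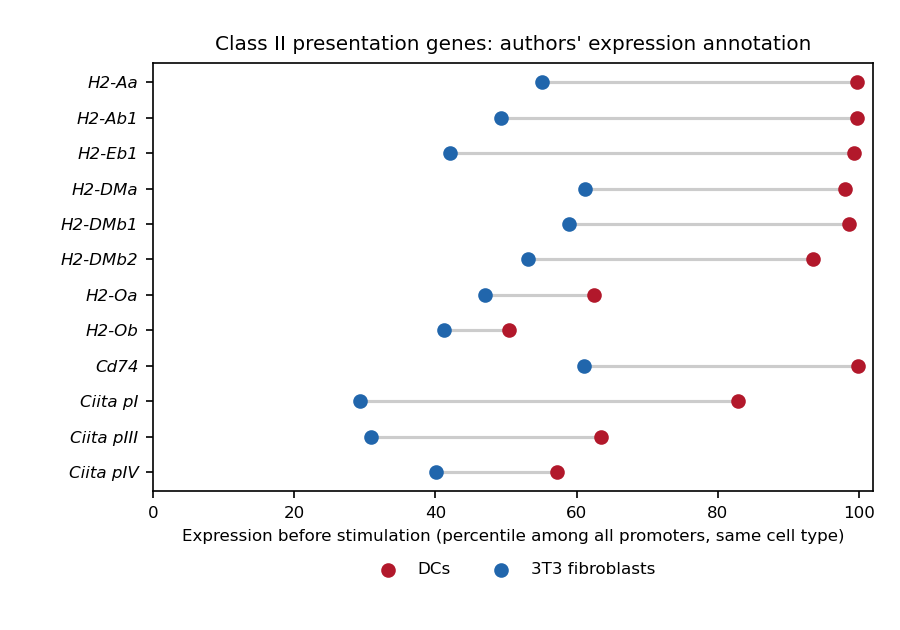
Expression before stimulation of each of the 12 class II presentation promoters, as the percentile among all promoters of the same cell type (x axis), in DCs (red) and 3T3 fibroblasts (blue). In DCs 6 promoters stand above percentile 98, in fibroblasts none stands above 61.3.

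The cell type names of the expression values were checked against marker genes in the same annotation. As these values were not measured in the ChIP-MNase libraries, the labels of those libraries were not tested. The marker counts are to be read beside the same shares of all promoters (48.1% in DCs and 40.2% in fibroblasts). Of 12 dendritic and myeloid markers 11 were called expressed in DCs and 0 in fibroblasts, of 12 fibroblast markers 3 and 12, and of 5 B cell markers 2 and 0. In the rest of the pathway, 5 of 7 genes of the X and Y box factors were called expressed in DCs and 4 of 7 in fibroblasts. Antigen processing genes were expressed in both cell types (7 of 7 and 6 of 7), except that cathepsin S (Ctss), which trims the invariant chain, was at percentile 98.95 in DCs and not called expressed in fibroblasts. Of 5 genes of surface turnover and costimulation, 5 were called expressed in DCs and 1 in fibroblasts, and of 6 other genes inside the class II region 5 and 4.

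Depletion upstream of the TSS was taken as the NDR log2 ratio, the log2 of mean occupancy from −150 to 0 bp over that from −1000 to −500 bp with a pseudocount of 0.1 added to both, so that a nucleosome-depleted region (NDR) gives a negative value. In bulk chromatin, a region depleted in fewer cells and one depleted less in each cell cannot be told apart. Among the chains of the class II molecules, H2-Ab1 had the lowest ratios in DCs that held in both states, −1.79 before and −1.88 after LPS. In fibroblasts it was −0.48 before and −1.52 after TNF-α in the pooled sets, and −2.81, −0.61 and 0.43 as the lowest, median and highest of the 8 single libraries. Both DC values thus lay below both pooled fibroblast values but inside the range of the single libraries. H2-Aa had −0.63 and −1.88 in DCs, −0.90 and −0.75 in the pooled fibroblast sets and −2.57, −0.40 and 0.64 (lowest, median and highest) in single libraries. Its values overlapped between the cell types. H2-Eb1 had −0.39 and −2.56 in DCs, −0.13 and −1.57 in the pooled fibroblast sets and −1.16, 0.02 and 1.07 in single libraries. In the pooled sets H2-Eb1 was the member that differed most between states in DCs, with mean upstream occupancy of 0.77 before and 0.09 after LPS, relative to the mean of the set, and of 0.91 before and 0.17 after TNF-α in fibroblasts. The single fibroblast libraries did not show that change, since their fitted difference upon TNF-α at H2-Eb1 was 0.55 (SE 0.51).

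**Figure D2:**
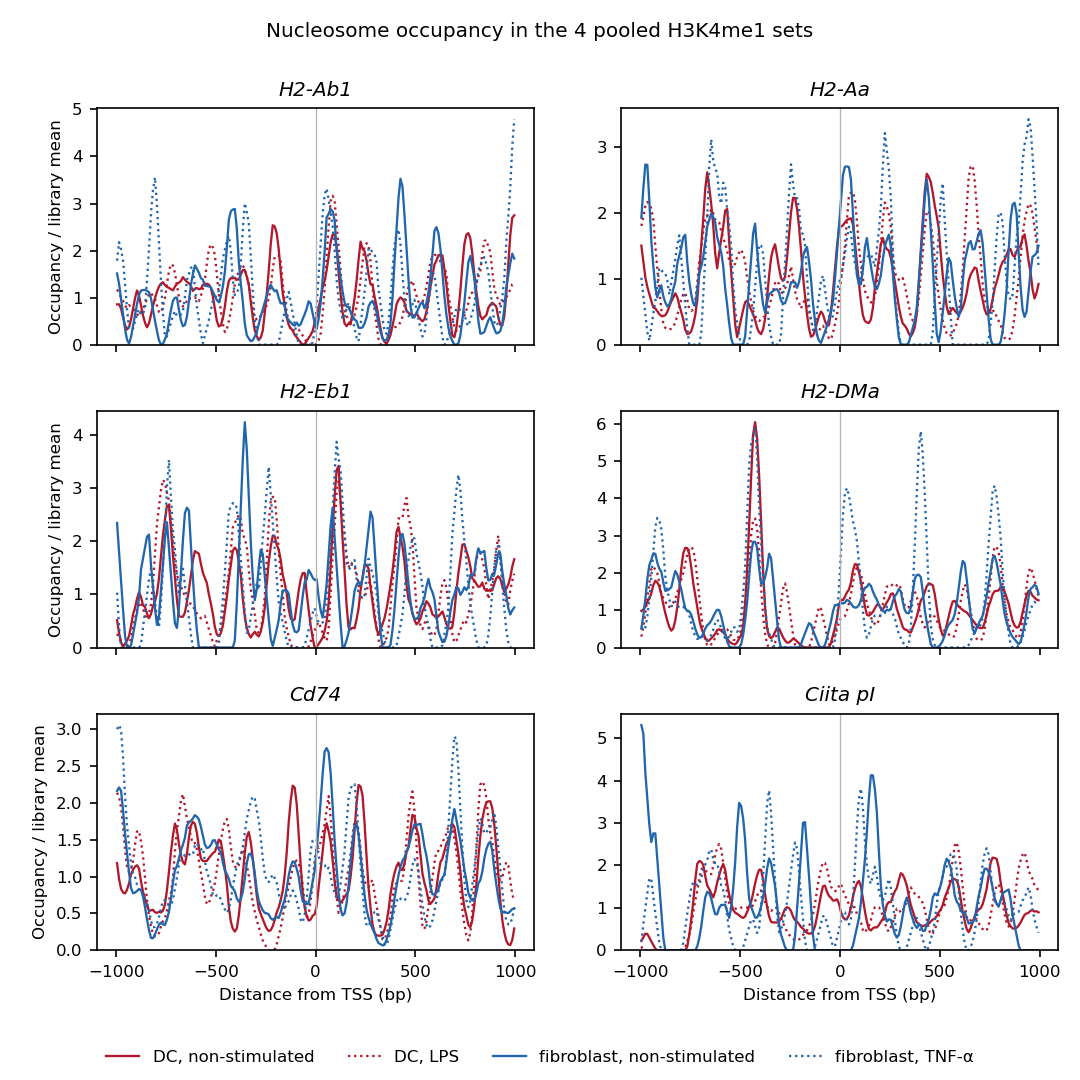
Occupancy relative to the mean of each set (y axis) by distance from the TSS in bp (x axis) at 6 class II presentation promoters, for DCs (red) and 3T3 fibroblasts (blue), non-stimulated (solid) or stimulated (dotted), in the 4 pooled H3K4me1 sets. H2-Ab1 shows a trough upstream of the TSS and a first downstream peak at 55 to 85 bp in all 4 sets, whereas Ciita pI shows an upstream trough in fibroblasts and not in DCs.

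The H2-DM genes differed from each other. H2-DMb1 was depleted alike in all 4 pooled sets, with −1.52 and −1.33 in DCs and −1.45 and −1.44 in fibroblasts, while its expression percentile was 98.6 in DCs and 58.9 in fibroblasts. H2-DMa had −1.86 and −1.02 in DCs and −0.96 and −2.03 in fibroblasts, again overlapping. H2-DMb2, the paralog of H2-DMb1, showed no depletion at the table's TSS, with 0.20 and −0.37 in DCs and 0.23 and 0.14 in fibroblasts. Its RefSeq start and Y box lie upstream of that window, and within 50 bp of its Y box occupancy was 0.68 and 0.57 times that of the distal flank in DCs and 0.79 and 0.64 times in fibroblasts. For H2-DMb1 the same ratios at the Y box were 0.30 and 0.35 in DCs and 0.39 and 0.33 in fibroblasts, and for H2-Aa 0.32 and 0.18 against 0.28 and 0.54. The other promoters with a Y box did not share low values in all sets. H2-Eb1 had 0.85 and 0.036 in DCs against 0.91 and 0.24 in fibroblasts, H2-Ob 0.33 and 0.59 against 0.042 and 1.57, and H2-Oa 0.92 and 0.93 against 0.58 and 0.74. In the single libraries H2-DMb1 ranged from −0.59 to 3.70 (median 1.13) and H2-DMb2 from −2.71 to −0.11 (median −1.08). For both paralogs single and pooled fibroblast values thus had opposite signs at the median. The distal flanks of both hold bins empty in all single libraries. The flank of H2-DMb1 was 0 in a non-stimulated knockdown library, and upstream occupancy at H2-DMb2 fell to 0. The single values therefore rest partly on the pseudocount, and the opposite signs are not read as a difference in depletion.

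H2-Oa showed no depletion in the pooled sets. Its ratio was 0.26 and 0.31 in DCs, 0.18 and 0.10 in the pooled fibroblast sets and −0.14, 0.17 and 0.64 (lowest, median and highest) in single libraries, the narrowest range of any member in these libraries. H2-Ob, the other chain of H2-O, had −0.98 and −0.88 in DCs although it was not called expressed there, and −1.74 and 0.59 in the pooled fibroblast sets, so that the DC values lay between the fibroblast values. The single libraries of H2-Ob ran from −0.84 to 0.54 with a median of −0.04. Cd74, the member with the highest expression in DCs, was at 0.13 and −0.28 in DCs, −0.27 and −0.42 in the pooled fibroblast sets and −1.45, −0.29 and 0.42 in single libraries. Its DC values were above those of the typical expressed promoter, since the median of all promoters called expressed in DCs was −0.90 before and −1.01 after LPS.

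Ciita pI, the promoter known from dendritic cells, had the largest difference of all members between the DC sets and the pooled fibroblast sets, in the direction of less depletion in DCs. Its NDR log2 ratio was 0.40 and 0.83 in DCs against −2.76 and −1.16 in the pooled fibroblast sets. The 8 single fibroblast libraries did not share the low values, with −3.37 as the lowest, 0.61 as the median and 1.48 as the highest, and 7 of them were above 0. Over its 200 bins the mean profile of the single fibroblast libraries correlated with that of the pooled fibroblast sets at r = −0.16 at Ciita pI, as it did at H2-DMb1 (−0.16), against a median of 0.27 over the members, 0.54 at Cd74 and 0.41 over all promoters. Ciita pIII had −1.35 and −0.84 in DCs, −0.74 and −0.91 in the pooled fibroblast sets and −3.68, −0.26 and 0.19 in single libraries. Ciita pIV had −0.48 and −0.34 in DCs, −1.75 and −0.86 in the pooled fibroblast sets and −3.71, −0.40 and 1.14 in single libraries. At pIV both DC values were above both pooled fibroblast values, and at pIII they overlapped.

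**Figure D3:**
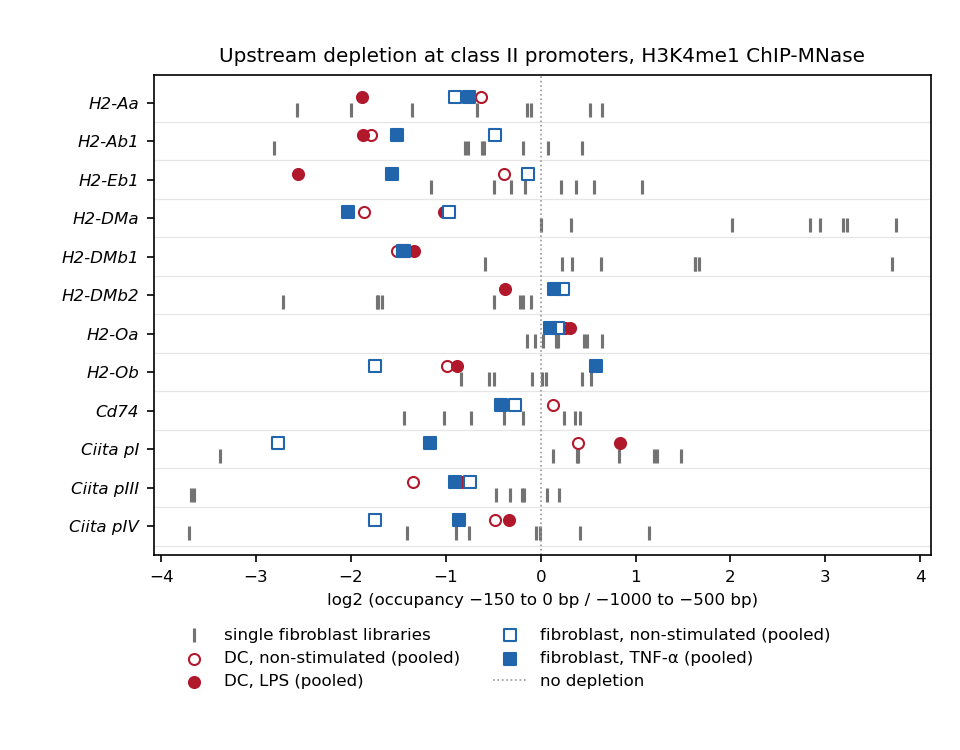
NDR log2 ratio (x axis) of each class II presentation promoter in the pooled DC sets (red circles), the pooled fibroblast sets (blue squares), open before and filled after stimulation, and the 8 single fibroblast libraries (grey ticks). The dotted line is no depletion. DC and fibroblast values overlap at most members, and at Ciita pI the single libraries spread from −3.37 to 1.48.

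Whether DCs and fibroblasts differed was tested with limma across all 13559 promoters with a score above 100, with Benjamini-Hochberg adjustment, in the 12 H3K4me1 sets. A term for pooled or single sets was included, so the estimate is the difference between the 2 DC sets and the 2 pooled fibroblast sets, while the single libraries give the spread. None of the 12 members was called for the NDR log2 ratio (adjusted p = 1 for each), beside a background of 0% of all promoters, where 0 were called and 482 had an unadjusted p under 0.05. The members' estimates had a median of −0.12 against 0.08 over all promoters, with 6 higher and 6 lower in DCs. The lowest was H2-Ab1 (−0.83, SE 0.93, 95% interval −2.89 to 1.23), followed by H2-Eb1 (−0.62, SE 0.94) and H2-Aa (−0.43, SE 1.11). The highest was Ciita pI (2.58, SE 1.36, 95% interval −0.43 to 5.59, unadjusted p = 0.0857). Next came Ciita pIV (0.90, SE 1.21) and Cd74 (0.27, SE 0.69), and the remaining 6 lay between −0.35 and 0.14. With standard errors of 0.55 to 1.36, differences of a few fold in upstream occupancy were not detectable with these sets, and even the 2.58 log2 units at Ciita pI were not called. The spread of the pooled sets may differ from that of the single libraries, whose flank at H2-DMa is empty.

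Patterning level measures how closely the whole profile follows the mean profile of expressed promoters of the same cell type. It is the sum over 200 bins of that mean profile, rescaled between 0 and 1 and centred, times occupancy minus its mean. At Ciita pI it was −1.04 and −6.22 in DCs and 15.5 and 10.9 in the pooled fibroblast sets. The single fibroblast libraries had −4.82 as the lowest, 0.724 as the median and 11.9 as the highest, so the DC values lay below both pooled fibroblast sets and overlapped the single libraries. The fitted difference was −16.8 (SE 5.30, unadjusted p = 0.00778) and was not called (adjusted p = 0.999 by limma). It was called only when occupancies were used as deposited (−27.4, adjusted p = 0.0323 by limma), where the single libraries have lower occupancies. Of all 13559 promoters 7 (0.0516%) were called for patterning level, and 0 of the 12 members were. H2-Ab1 had 5.36 and 8.76 in DCs against 1.89 and 0.888 in the pooled fibroblast sets, a fitted difference of 5.67 (SE 5.10). H2-Eb1 had 6.07 and 13.6 in DCs against −2.05 and 14.3, which overlapped. Over the members the median difference was 1.09, against −0.24 over all promoters.

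As the values are relative to the local total, the recovery of a promoter by H3K4me1 is seen only in the percentage of its 200 bins that hold any fragment. In DCs this was 89.5 to 100% at all 12 members. H2-Aa had 100% in both DC sets against 93% and 76% in the pooled fibroblast sets, and H2-Eb1 99.5% and 95% against 87.5% and 76%. H2-Ob had 95.5% and 97% in DCs, 74.5% in each pooled fibroblast set and 77%, 84% and 86% as the lowest, median and highest of the single libraries. Its DC values thus lay above all 10 fibroblast values. Cd74 and H2-Oa were covered as fully in the pooled fibroblast sets (98 to 100%) as in DCs (97 to 100%). After subtracting the median of each set, the fitted difference at H2-Ob was 17.5 percentage points (SE 6.86, 95% interval 3.09 to 31.9), which was not called (adjusted p = 0.110 by limma). Without that subtraction it was 21.8 points and was called (adjusted p = 0.00789 by limma). Among the others, Ciita pIV differed by 13.25 points (SE 8.17), H2-Aa by 11.25 (SE 7.58) and H2-Eb1 by 11.25 (SE 6.35), none of them called. Over all 25881 promoters 3500 (13.5%) were called, 354 (1.37%) with more and 3146 (12.2%) with fewer covered bins in DCs, against 0 of 12 members in either direction. The median difference was 6.38 points over the members and −3.25 over all promoters. All 12 members have a score above 100, whereas these shares and the median over all promoters include those at or below that limit. Values for promoters above the limit alone were not computed, so the members' higher median is not read as particular to them.

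**Figure D4:**
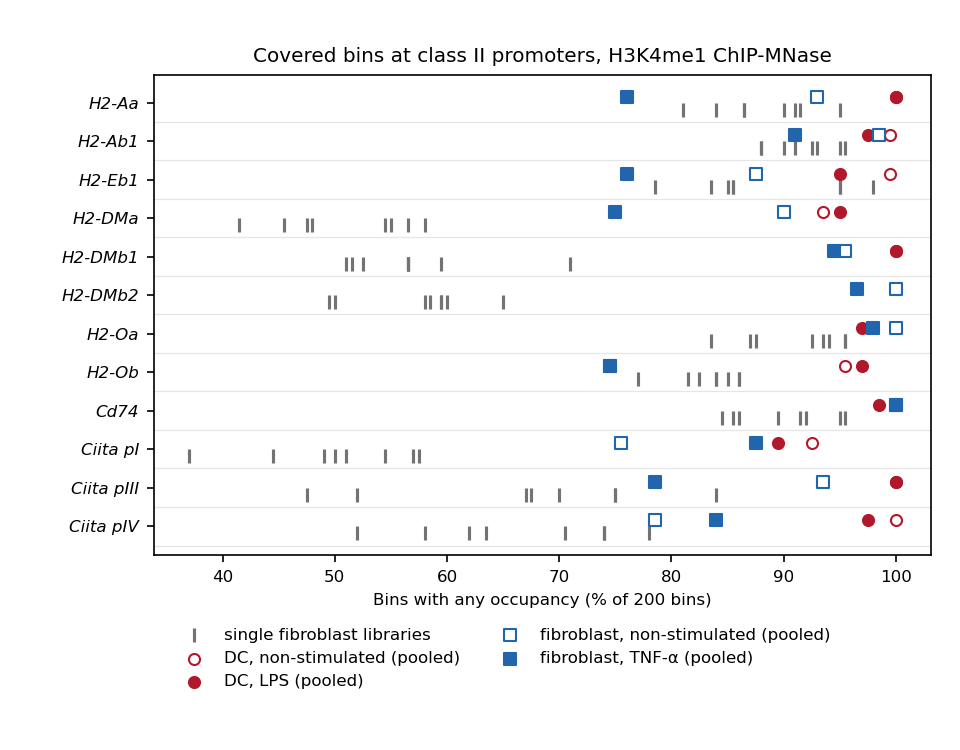
Percentage of the 200 bins with any occupancy (x axis) at each class II presentation promoter, with symbols for the pooled DC sets (red circles), pooled fibroblast sets (blue squares) and 8 single fibroblast libraries (grey ticks), where equal values cover each other. DCs hold 89.5 to 100% throughout, and the single libraries of the H2-DM genes and of Ciita pI fall to between 37% and 71%.

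Exact two-sided permutation of the 2 DC sets among all 12 H3K4me1 sets has 66 splits and cannot give a p below 0.0152. For covered bins as a plain percentage, H2-DMa, H2-DMb1, H2-Ob, Ciita pI and Ciita pIV reached that smallest p with more in DCs (5 of 12 members), beside 16.9% of the 13559 promoters with a score above 100. In this comparison both DC sets are pooled and 8 of 10 fibroblast sets are single, so cell type and pooling cannot be told apart. At H2-Ob the pooled fibroblast sets had fewer covered bins (74.5%) than any single library. For the NDR log2 ratio the same exact permutation gave p = 0.0909 at H2-Ab1 and H2-Eb1 and p = 0.652 at Ciita pI.

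The members' profiles were alike before and after LPS in DCs. Pearson's r between the 2 DC sets, over the 200 bins of a promoter, ran from 0.506 (H2-Aa) to 0.750 (H2-DMa) with a median of 0.613, and all 12 members were above the median of 0.369 over all promoters. An r of at least 0.506 was found at 27.4% of the other promoters. Coverage goes with this likeness, since 10 of 12 members had at least 95% of bins covered in both DC sets. Among the 3551 promoters covered to that degree the median was 0.416 and 35.3% reached 0.506, and among those with a score above 500 the median was 0.447 and 39.9% reached it. In fibroblasts, before and after TNF-α, the members' r ran from 0.00244 (H2-Ob) to 0.615 (H2-DMa) with a median of 0.190, against 0.315 over all promoters. There 3 of 12 members, H2-DMa, Cd74 (0.560) and H2-Ab1 (0.354), were above the median of all promoters, and 3 of 12 were covered to 95% in both sets. Bins of a promoter overlap by smoothing and come from the same fragments, so these r are descriptions without a test.

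**Figure D5:**
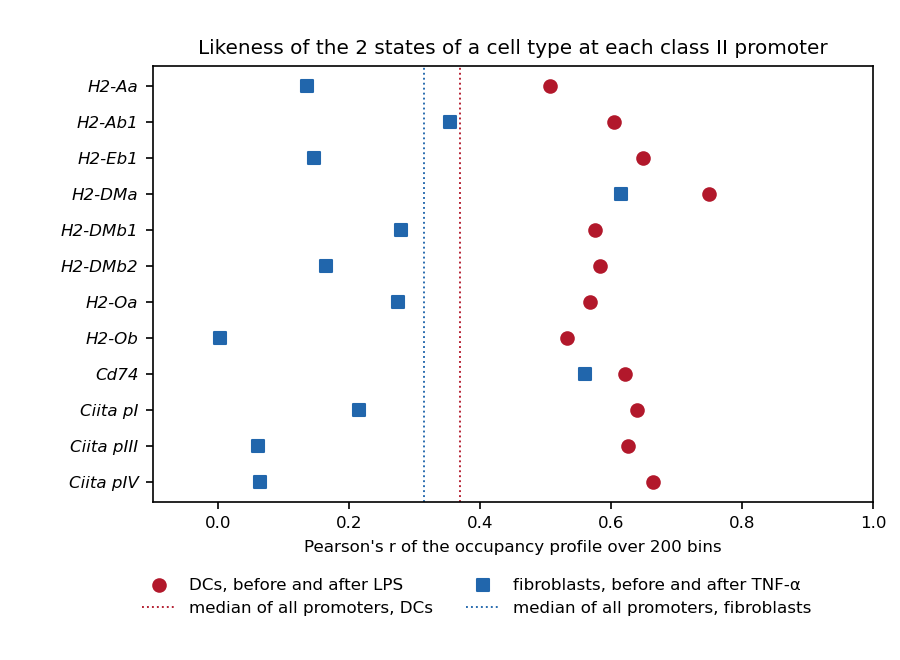
Pearson's r over 200 bins between the 2 states of a cell type (x axis) at each class II presentation promoter, for DCs before and after LPS (red circles) and fibroblasts before and after TNF-α (blue squares). Dotted lines are the medians of all promoters with a score above 100 (0.369 and 0.315). All 12 red circles lie right of their line, and 3 of 12 blue squares lie right of theirs.

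Between the non-stimulated cell types the members' r had a median of 0.419, against 0.284 over all promoters. Cd74 was at the upper end with 0.657 (percentile 97.2 of all promoters) and Ciita pI at the lower end with −0.12 (percentile 3.25). Between the stimulated cell types the median was 0.261 against 0.240 over all promoters. There H2-Oa was lowest with −0.24 (percentile 0.664), H2-DMa highest with 0.559, and Ciita pI was at 0.176 (percentile 38.3), and the order of the members thus differed between the states. The first peak downstream of the TSS of H2-Ab1 lay at 85 bp in both DC sets and at 75 and 55 bp in the pooled fibroblast sets. The highest bin of H2-Eb1 near the TSS was at 115 bp in both DC sets and at 85 and 105 bp in fibroblasts.

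The H3K4me1 groups given as separate replicates are the 8 control and BAF-knockdown libraries, from fibroblasts, where most members were not called expressed. With stimulation and knockdown as terms in limma, 0 of 12 members were called for either measure and either term, beside 0% of all promoters (0 of 13559 in each of the 4 fits, with 699 to 793 at an unadjusted p under 0.05). An unadjusted p under 0.05 in limma was reached by 1 of 12 members in each of 2 fits and by 0 of 12 in the others. In those 2 fits it was reached by 773 (patterning level, TNF-α) and 699 (NDR log2 ratio, knockdown) of 13559 promoters. The 2 member values are given as a description and not as a departure from these shares. The patterning level of Ciita pIII was higher by 8.35 after TNF-α (SE 3.30, unadjusted p = 0.0392, adjusted p = 0.865 by limma), with −4.83, −3.42, −1.02 and 0.825 in the 4 non-stimulated libraries and 7.17, 5.52, 13.2 and −0.916 in the 4 stimulated ones. These overlapped in 1 stimulated library, a knockdown replicate. H2-DMa had an NDR log2 ratio lower by 1.93 in knockdown cells (SE 0.736, unadjusted p = 0.0365, adjusted p = 0.923 by limma), but its distal flank is empty in every one of these libraries, so the ratio rests on the pseudocount. The interaction of TNF-α and knockdown was called at 0 of 12 members, beside 0% of all promoters, and had its lowest unadjusted p at Ciita pI for patterning level (−12.7, SE 4.89, unadjusted p = 0.0409, adjusted p = 0.857 by limma).

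In the pol-II libraries of TNF-α-stimulated fibroblasts the members varied from library to library. The S5P library covered 11 of 12 members less than its median promoter, Cd74 being the exception with 99% of bins. Cd74, called expressed in fibroblasts, had an NDR log2 ratio of −2.77 and −1.49 with S7P and −0.85 with S5P. All 3 were lower than the −0.42 of the pooled H3K4me1 set from stimulated fibroblasts. The 8 single H3K4me1 libraries, of both states, ran from −1.45 to 0.42 and so held the S5P value. Upstream occupancy was 0 where the ratio was −2.77, which thus rests on the pseudocount. H2-Oa had 0.39 and −1.07 with S7P and −1.45 with S5P, and H2-Eb1 had 1.01 and 1.17 with S7P and −0.53 with S5P, so that signs differed between antibodies or replicates. The antibody goes together with the type of sequencing, paired-end for pol-II and single-end for H3K4me1, and the 2 cannot be told apart. For covered bins, 5 of 30 promoters of the other genes of the pathway and region were called (16.7%, beside 13.5% of all promoters), 2 with more and 3 with fewer in DCs. Nfyc, a subunit of the Y box factor NF-Y, had 23 points more in DCs at 1 of its 2 promoters (adjusted p = 0.0425 by limma), and Cd86, a costimulatory molecule, 38.25 more (adjusted p = 0.00446). Ctsz, a cathepsin, had 25.75 points fewer (value −25.75, adjusted p = 0.0119). March1, a ubiquitin ligase that removes class II from the surface, had −53 and −48.75 at 2 of its 3 promoters (adjusted p = 0.00195 and 0.00194). The coverage scores of these March1 promoters were 50 and 44, below the authors' limit. Its other promoter had a score of 107.5 and stood at expression percentile 98.2 in DCs. There DCs had 6.25 points more, which was not called (adjusted p = 0.754 by limma). For the NDR log2 ratio and patterning level 0 genes of the factor, processing, turnover and class II region lists were called, beside 0% and 0.0516% of all promoters.

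The promoters whose NDR log2 ratio across the 12 H3K4me1 sets most resembled the median of the 12 members were Gstcd (r = 0.953), Zfp273 (0.948), Cdkn2d (0.920), Gm13275 (0.913) and Srp54a (0.910). The last 3 had an NDR log2 ratio of exactly 0 in all 8 single libraries. The pseudocount gives that value where both windows hold no fragment, so it is not read as a measured lack of depletion. The likeness follows the division into pooled and single sets, which the members' median shares. The members themselves correlated with that median between −0.44 (H2-DMb2) and 0.85 (H2-DMa). The distal flank of H2-DMa is empty in the single libraries, so its value rests partly on the pseudocount.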

How the data were processed

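ChIP-MNase data of 15 sets of mouse cells were used as deposited. The authors aligned reads to mm9 with at most 2 mismatches, keeping reads with up to 5 places, discarded surplus duplicates and retained paired-end fragments of 140 to 180 bp (single-end reads were lengthened to the average fragment), and among these the fragments that mapped to 1 place among promoters. Values were scaled to the surrounding 1 kb and smoothed over 50 bp. The deposited occupancies are thus a local signal in 200 bins of 10 bp around each TSS. They hold no counts, so depth is unknown, no counting interval can be given, and bins left blank were taken as 0. The authors' promoter table gives a coverage score and 2 expression columns. The study describes promoter expression by RNA-seq in FPKM, but the deposited columns name no unit and differ widely in scale between the cell types. Its 2 columns of array log2 differences upon stimulation are the authors' own comparisons and were not used. The submitters' processing notes name Bowtie2 and bedtools.

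RefSeq transcripts were matched to symbols (96.3% of promoters). Each set was divided by its mean occupancy over promoters with a score above 100. Fits used limma 3.58.1 in R 4.3.3 with Benjamini-Hochberg adjustment at 0.05 over all promoters fitted, with the terms cell type, pooled or single set, knockdown and stimulation (12 H3K4me1 sets), or stimulation and knockdown (8 libraries, with no replicate block), after tests on simulated data. Intervals are 95%. All 10 members were named, with every promoter of each. The genes, gene lists and tests were chosen with earlier results of these data known. The study lists the replicates as biological. Alternatives covered the promoters tested, the terms, the pseudocount, the window, the scale and each set left out in turn. That the letters TGATGC were looked for was decided after the sequences were seen, as was a fit without 2 knockdown libraries whose names carry another MNase amount. Promoter sequences of H2-Ab1, Cd74 and Ciita were not analysed here, and those of H2-DMa were not used because they start far from the TSS of the table.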

Additional observations from a re-analysis of the deposited data

How the results depend on the processing

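Of the 12 members, 2 values were called in any of 1156 alternative fits of a member, Ciita pI for patterning level with occupancies as deposited (−27.4) and H2-Ob for covered bins without subtracting the library median (21.8). The count of promoters called between DCs and fibroblasts for the NDR log2 ratio was 54 over all promoters and 4 with a window from −100 to 50 bp, against 0. For patterning level (7) it was 2 without the term for pooled sets, 0 without the BAF-knockdown libraries, 119 as deposited, 0 on the square root of occupancy and 0 to 6 when a set was left out, with 0 without any 1 of the 4 pooled sets. For covered bins (3500) it was 0 in the 4 pooled sets alone and 1322 to 3792 when a set was left out, lowest without the stimulated fibroblast set. Upon TNF-α the NDR count was 8 over all promoters and 0 to 2 when a library was left out (2 without stimulated control replicate 1), against 0. Differences in NDR log2 ratio that reversed were, without the pooled term, H2-DMa (−3.11), H2-DMb1 (−1.50) and H2-DMb2 (0.65), and, with the other window, H2-DMa (−0.69), H2-DMb1 (−0.42), Cd74 (−0.11) and Ciita pIII (0.53). When a set was left out, signs turned at 9 of 12 members, with ranges of −0.96 to 0.10 (H2-Aa), −1.67 to 0.0064 (H2-Ab1), −1.79 to 0.54 (H2-Eb1), −0.60 to 0.72 (H2-DMa), −0.39 to 0.43 (H2-DMb1), −0.0028 to 0.29 (H2-Oa), −1.68 to 0.98 (H2-Ob), −0.24 to 0.78 (Cd74) and −1.24 to 0.70 (Ciita pIII). Ciita pI stayed between 1.26 and 3.89. The cause of these changes was not tested. Replicate numbers share only a number (correlations of −0.0075 to 0.021 over 6 pairs of groups), and with a replicate block 0 promoters were called and 0 of 48 member fits (lowest adjusted p = 0.849 by limma). Without the 2 libraries of another MNase amount, added after the data were seen, 0 were called.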

Other observations

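Among 12 dendritic and myeloid marker genes, none of them a class II presentation gene, the 12 promoters with a score above 100 had a median patterning difference of 8.88, higher in DCs, against −0.24 over all promoters, and a median NDR log2 difference of −1.33 against 0.08. None was called for either measure by limma with Benjamini-Hochberg adjustment, and 5 of the 12 had an unadjusted p under 0.05 for patterning level, as had 419 of all 13559 promoters. The class II presentation genes had medians of 1.09 and −0.12 for the same differences.

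Among fibroblast markers, covered bins were fewer in DCs at 5 promoters and more at 1, of 13 tested (12.2% and 1.37% of all promoters were called in these directions). Those with fewer were Col1a2 (−46.25 percentage points), Col3a1 (−32.5), Col5a2 (−37.5) and Lum (−46.5), which encode collagen chains and a collagen-binding proteoglycan, and Fbn1 (−38.25), which encodes fibrillin. The coverage scores of these promoters ran from 47.5 (Lum) to 65.75 (Fbn1), below the authors' limit. Fn1, which encodes fibronectin, had 25.75 points more in DCs, with a score of 189.5. None of the 7 fibroblast marker promoters with a score above the limit was called with fewer covered bins.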
